A study of Mus musculus with 6 samples.

Results

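Imprinted genes were followed in testes of newborn mice with or without the transcriptional co-repressor Sin3a in their germ cells. They were taken as the non-control probes whose gene name is on a list of 38 imprinted genes, 16 expressed from the maternal allele, 21 from the paternal allele, and Gnas, whose transcripts differ in the allele they use. The array held 71 probes for 37 of the 38 genes (Rian had no probe by name) among 34844 distinct gene names. Of these, 36 genes had a probe above background (15 maternally expressed, 20 paternally expressed and Gnas), among 24569 genes tested. Rtl1, the paternally expressed retrotransposon-derived gene beside Dlk1, had 1 probe that was not well above background and was not tested.

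VSKO mice carried the Ddx4-driven Cre, also called Vasa-cre, with 1 deleted and 1 floxed Sin3a allele. HEMI mice carried the same Cre with 1 deleted allele and 1 intact allele, and WT mice carried it with 2 intact alleles. All animals were male, of a mixed FVB.129/Sv strain, at postnatal day 0, with 2 animals per group and whole-testis RNA of each animal on its own 1-colour (Cy3) array. Ddx4 is a germ cell gene, so the floxed allele is removed in germ cells while the other cells of the testis are measured with them. The sources used here do not say whether the deleted allele was also present outside germ cells.

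An imprinted gene is expressed mainly from the copy inherited from the mother or from the copy inherited from the father. The choice is set by DNA methylation laid down in egg or sperm at an imprinting control region, and it is kept in somatic cells for life. Male germ cells erase the marks they inherited and lay down the paternal ones around birth, with the help of Dnmt3l, while the somatic cells around them keep theirs. Several members, among them Igf2, H19, Dlk1 and Cdkn1c, are abundant in fetal mesenchyme and govern growth. The arrays measured total RNA of a gene and did not separate the parental alleles, so loss of imprinting and a change in level from the active allele could not be told apart.

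Values are log2 of the signal divided by the 75th percentile of the same array, so that 0 marks that percentile, and are given for VSKO replicates 1 and 2, HEMI replicates 1 and 2 and WT replicates 1 and 2. Each probe has its own brightness, so a level is compared between arrays and never between genes. Between 59.2% and 64.5% of the spots on an array were well above background and none was saturated. Sin3a had 0.61 and 0.38 in VSKO, 0.89 and 0.89 in HEMI and 1.09 and 1.11 in WT. It was lowest on both VSKO arrays, but the difference of VSKO from WT, -0.60 ± 0.13 (SE), had an adjusted p of 0.134 by limma. The sources used here do not name the deleted exons, so the probe may lie outside them. The VSKO and HEMI arrays lay in the first row of the slide and the WT arrays in the second, so that row and genotype cannot be told apart in comparisons with WT.

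Several members are RNAs that encode no protein, and what was measured of them is the match to a 60-base probe. The probes of H19, Meg3, Mirg and Airn, on which the values below rest, are printed 5′ to 3′ with the last 30 bases of the Gnas probe that alone passed the test. Positions are those in the array files, build mm9.
H19 (chr7:149761492-149761551, minus strand): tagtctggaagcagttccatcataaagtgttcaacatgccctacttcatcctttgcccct
Meg3 (chr12:110809678-110809737, plus strand): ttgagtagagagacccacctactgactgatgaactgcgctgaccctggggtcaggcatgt
Mirg (chr12:110987569-110987628, plus strand): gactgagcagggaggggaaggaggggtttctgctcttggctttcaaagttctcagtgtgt
Airn (chr17:13008078-13008137, plus strand): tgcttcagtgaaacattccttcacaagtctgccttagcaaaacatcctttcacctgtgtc
Gnas transcript variant 4, bases 31 to 60 of the probe (whole probe chr2:174163501-174163560, plus strand): gtaaaaataactattaacgctcctgataaa

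No imprinted gene passed the test in any of the 3 comparisons when read from its brightest probe, although a dimmer probe of Gnas did so in VSKO against WT. In VSKO against WT, 0 of 36 passed an adjusted p of 0.05, against 240 of 24569 genes (0.977%), by limma with Benjamini-Hochberg adjustment. For HEMI against WT it was 0 of 36, with 0.118% of all genes called, and for VSKO against HEMI 0 of 36, with 0.142% called. Without adjustment, p was under 0.05 for 2 of 36 members in VSKO against WT (14.7% of all genes), for 4 in HEMI against WT (12.4%) and for 1 in VSKO against HEMI (7.69%). The arrays of VSKO and WT did not overlap for 14 of 36 members (45.7% of all genes), 3 of them higher and 11 lower in VSKO. Over all genes tested, 5474 were higher and 5746 lower without overlap. Those of HEMI and WT did not overlap for 14 of 36 members (49.3% of all genes), and those of VSKO and HEMI for 9 of 36 (32.9% of all genes). An absolute log2 difference over 0.5 was found for 1 of 36 members in VSKO against WT (17.5% of all genes), 1 in HEMI against WT (15%) and 2 in VSKO against HEMI (11.4%), both maternally expressed. The 2 comparisons with WT share the WT arrays. In whole testis, fewer cells of a type and less RNA per cell cannot be told apart.

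**Figure D1:**
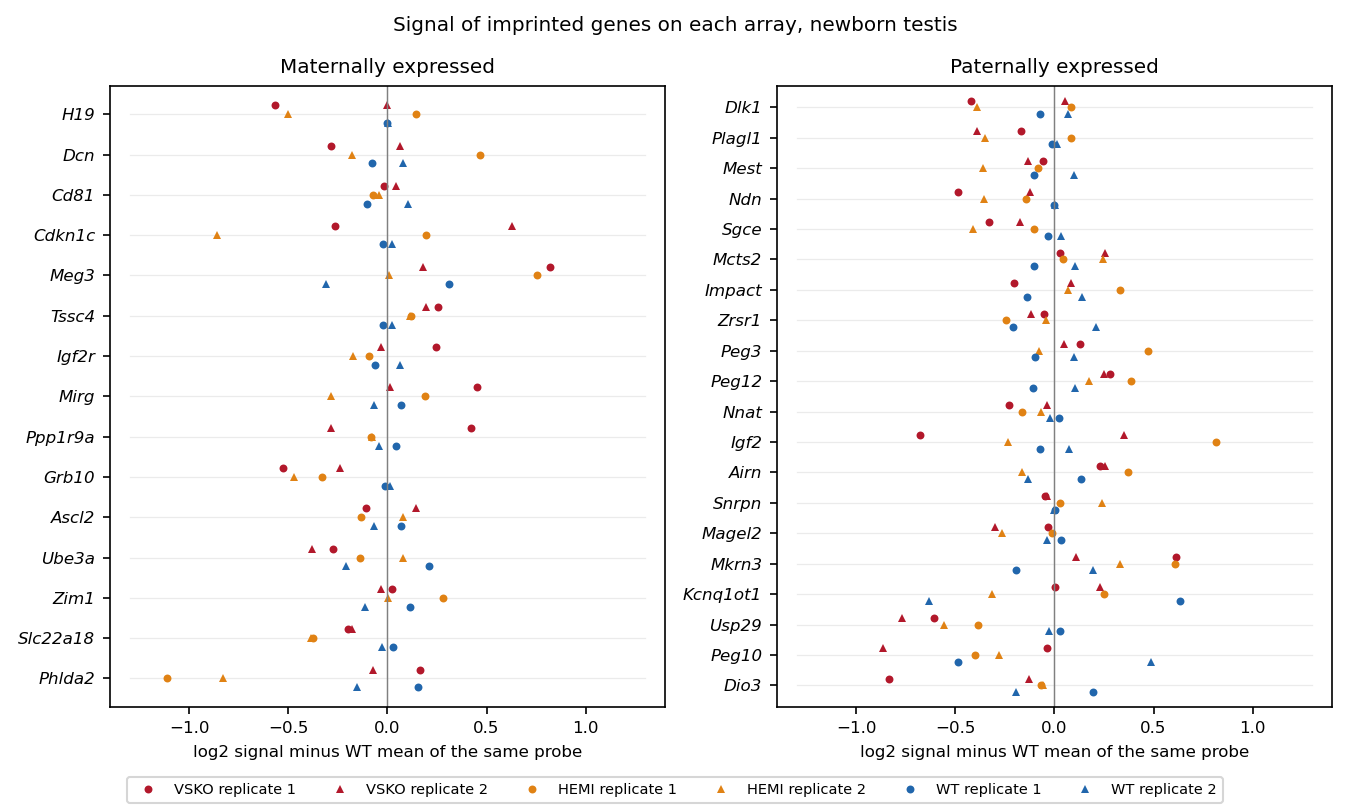
Each row is an imprinted gene and each point an array, as log2 signal minus the WT mean of the same probe (x axis), for VSKO, HEMI and WT animals (red, orange, blue; replicate 1 circles, replicate 2 triangles). For Igf2, Cdkn1c, H19 and Meg3 the 2 animals of a mutant group lie farther apart than the group means, while for Phlda2 both HEMI arrays lie below the others.

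Maternally and paternally expressed genes were then set side by side. The median log2 difference of VSKO from WT was 0.02 over 15 maternally expressed genes and -0.11 over 20 paternally expressed genes, against -0.01 over all genes tested. With each array left out in turn, the maternal median ran from -0.0345 to 0.0849, changing sign, and the paternal median from -0.198 to -0.0382. Of the paternally expressed genes 14 of 20 were lower in VSKO, and of the maternally expressed genes 6 of 15, against 51.3% of all genes tested. For HEMI against WT the medians were -0.06 for maternally expressed and -0.09 for paternally expressed genes, against -0.02 for all genes. For VSKO against HEMI they were 0.11 for maternally expressed and -0.04 for paternally expressed genes, against 0.02. The class median of an array varied between animals of a group with an SD of 0.047 for maternally expressed and 0.106 for paternally expressed genes. The distance between the classes was not tested, because the members are not replicates of a genotype. When the 6 maternally expressed members known to be imprinted mainly in placenta or brain were left out, the maternal medians were 0.04 in VSKO against WT, -0.18 in HEMI against WT and 0.19 in VSKO against HEMI.

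**Figure D2:**
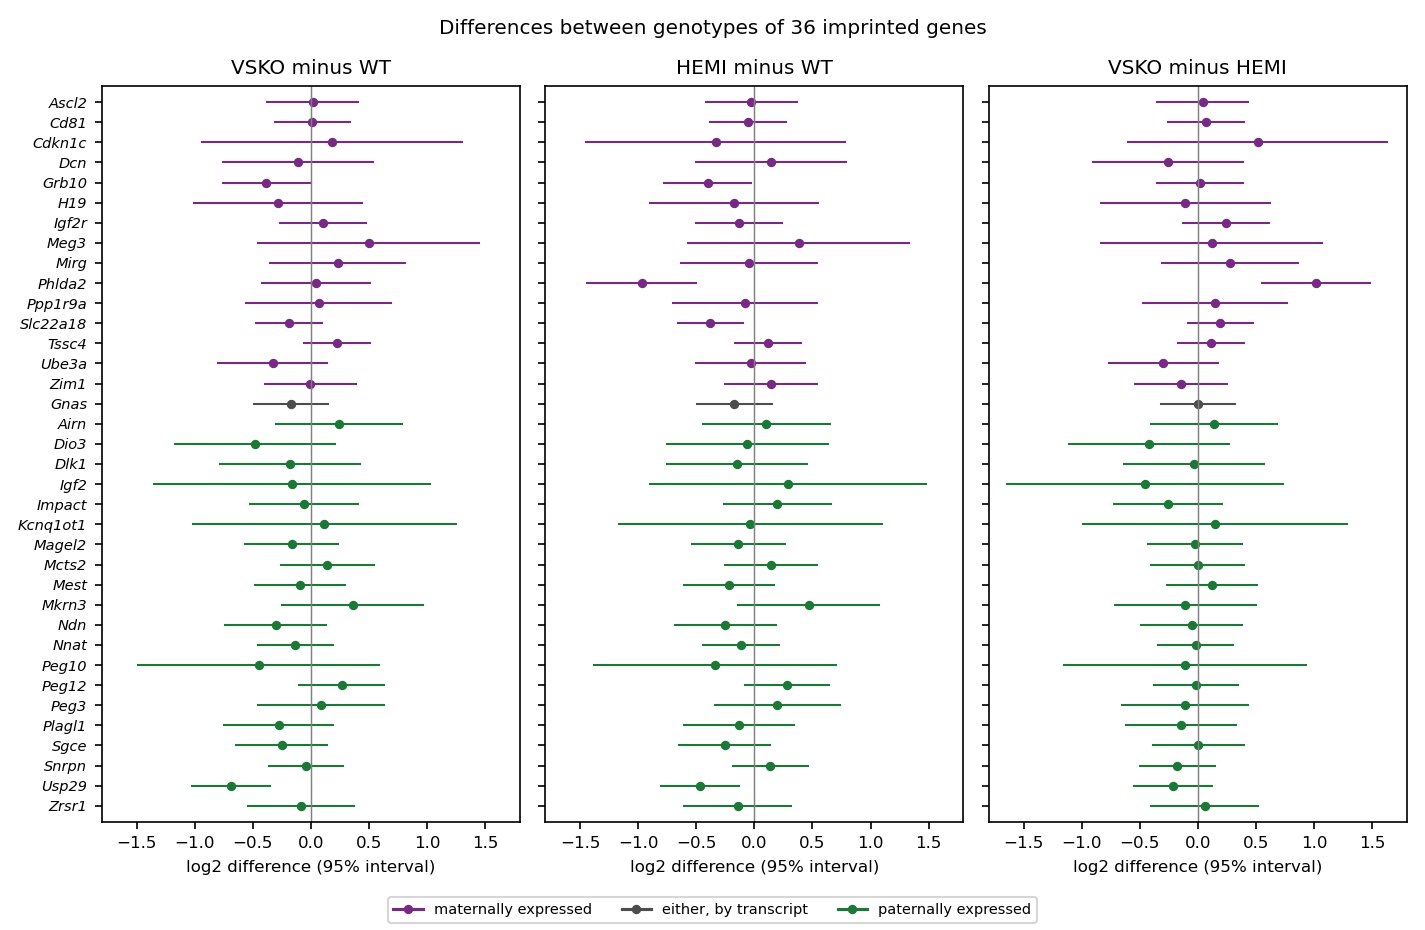
Points are log2 differences between genotypes and lines their 95% intervals (limma, 6 arrays), with maternally expressed genes above, Gnas between and paternally expressed genes below. Most intervals span 0, and Phlda2 in HEMI minus WT (-0.97) and Usp29 in VSKO minus WT (-0.69) lie farthest from it in the comparisons with WT, and Phlda2 in VSKO minus HEMI (1.02) in the other.

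By median, the spread between animals was large for the members of the Igf2-H19 and Dlk1-Dio3 domains, where the imprint is set by methylation in the paternal germ line. The median within-group SD was 0.340 for these 6 members, 0.149 for the 29 members of domains methylated in the maternal germ line and 0.170 for all genes tested. Among the 29, Kcnq1ot1 (0.574), Cdkn1c (0.564) and Peg10 (0.523) spread more than H19 (0.349) and Dlk1 (0.279), though less than Igf2 (0.604). H19, a maternally expressed RNA that restrains growth, had 6.55 and 7.11 in VSKO, 7.26 and 6.61 in HEMI and 7.11 and 7.11 in WT. Its paternally expressed neighbour Igf2, which encodes the fetal growth factor IGF-II, had -0.41 and 0.62 in VSKO, 1.09 and 0.04 in HEMI and 0.20 and 0.34 in WT. Dlk1, the paternally expressed transmembrane inhibitor of fat cell differentiation, had 7.07 and 7.54 in VSKO, 7.57 and 7.10 in HEMI and 7.42 and 7.56 in WT. H19, Igf2 and Dlk1 were each low on VSKO replicate 1 and HEMI replicate 2 and high on VSKO replicate 2 and HEMI replicate 1, with WT between or near the high arrays. H19 and Igf2 are reciprocally imprinted, and here the level of both moved the same way between animals of a group. The maternally expressed proteoglycan Dcn, outside these domains, had 6.75 and 7.09 in VSKO, 7.50 and 6.86 in HEMI and 6.96 and 7.11 in WT, with the same arrays low and high. Cdkn1c, the maternally expressed cyclin-dependent kinase inhibitor p57, had 4.14 and 5.03 in VSKO, 4.60 and 3.55 in HEMI and 4.38 and 4.43 in WT, so that both WT arrays lay inside the range of each mutant group.

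The differences of VSKO from WT for H19, -0.28 ± 0.29, and for Igf2, -0.16 ± 0.47, lay within these gaps (SE, adjusted p 0.695 and 0.904). For 29 of 36 members the largest gap between 2 animals of a group exceeded every difference between group means, as it did for 62.5% of all genes tested. The summed signal of 10 interstitial and mesenchyme markers, on the same log2 scale, was 7.83 and 7.95 in VSKO, 8.10 and 7.57 in HEMI and 7.83 and 7.89 in WT. That of 7 macrophage markers was 2.93 and 3.54 in VSKO, 3.62 and 2.68 in HEMI and 3.43 and 3.15 in WT. That of 7 mesonephric duct and rete markers was 4.50 and 5.12 in VSKO, 5.16 and 4.68 in HEMI and 4.48 and 4.70 in WT. In both mutant groups the array with more H19, Igf2, Dlk1 and Dcn was also the array with more of each of these lists. By summed signal 5 of the 10 cell type lists followed this order, with myoid and smooth muscle and endothelium as the others. The Sertoli, fetal Leydig and germ cell sums ran the opposite way in both groups, and the erythroid and skeletal muscle sums followed it in VSKO alone. For endothelium the sum and the median disagreed. Its median marker, relative to the WT mean, was 0.06 and -0.28 in VSKO and -0.26 and -0.24 in HEMI. The part of these cells in the gaps was not tested.

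**Figure D3:**
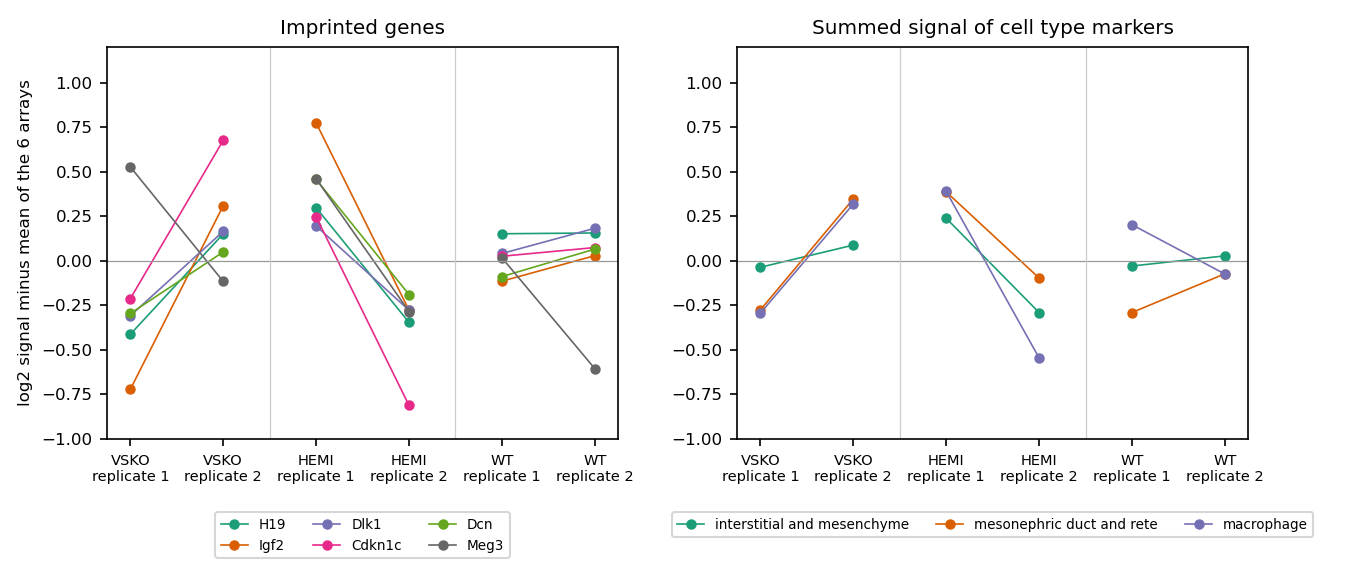
The y axis is log2 signal minus the mean of the 6 arrays, for 6 imprinted genes (left) and for the summed signal of 3 marker lists (right), and lines join the 2 animals of a group. H19, Igf2, Dlk1 and Dcn are high on VSKO replicate 2 and HEMI replicate 1, as are the 3 marker lists, and Meg3 is high on replicate 1 of each group.

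The RNAs of the Dlk1-Dio3 domain on chromosome 12 split the animals another way. Meg3, the maternally expressed RNA at the head of a long non-coding transcription unit, had 5.10 and 4.46 in VSKO, 5.03 and 4.29 in HEMI and 4.59 and 3.97 in WT. Mirg, a maternally expressed RNA that carries a cluster of microRNAs, had 2.11 and 1.67 in VSKO, 1.85 and 1.38 in HEMI and 1.73 and 1.59 in WT. Both were higher on replicate 1 than on replicate 2 in every group, and the groups overlapped. For Meg3 these gaps, 0.62 to 0.74, were larger than the difference of VSKO from WT, 0.50 ± 0.38 (SE, adjusted p 0.594, limma). A replicate number names an animal and is not stated to mark a shared litter or day. A higher signal on replicate 1 in all 3 groups was found for 5 of 36 members, 13.9%, and for 11.0% of all genes tested. Between the Meg3 and Mirg probes lay 22 probes above background on the same strand that carry no member's name, over 169.9 kb, a set chosen after values were seen. By limma 0 of them passed an adjusted p of 0.05 in VSKO against WT, where 0.727% of all kept probes did. Without adjustment 1 of them had a p under 0.05 (14.7% of all genes tested, each by its brightest kept probe). Their median difference of VSKO from WT was -0.03. Of these 22 probes, 14 were higher on replicate 1 in all 3 groups, against 11.0% of all genes tested. Neither share was computed over all kept probes. Some of the 22 probes lie side by side, so they are not independent readings. Dio3, the paternally expressed deiodinase that inactivates thyroid hormone, had -4.48 and -3.77 in VSKO, -3.71 and -3.70 in HEMI and -3.45 and -3.84 in WT. Its lowest array was VSKO replicate 1 and its highest WT replicate 1.

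The Kcnq1 domain on chromosome 7 has 7 tested members and is silenced on the paternal copy by the RNA Kcnq1ot1. Phlda2, a maternally expressed brake on placental growth, had -3.12 and -3.36 in VSKO, -4.40 and -4.11 in HEMI and -3.13 and -3.44 in WT. Both HEMI arrays lay below all others, and VSKO overlapped WT. The difference was -0.97 ± 0.18 for HEMI from WT and 1.02 ± 0.18 for VSKO from HEMI, the largest of any member in these comparisons, with adjusted p of 0.158 and 0.172 (SE, limma). Slc22a18, a maternally expressed transporter, had -1.63 and -1.61 in VSKO, -1.81 and -1.82 in HEMI and -1.41 and -1.46 in WT. Its groups did not overlap, with WT highest and HEMI lowest, and the difference of HEMI from WT was -0.38 (adjusted p 0.291). All 7 members of the domain, Kcnq1ot1 among them, had a positive difference of VSKO from HEMI, as did 13613 of 24569 genes. The median of the 7 was 0.15. For HEMI from WT, 6 of 7 had a negative difference (53.5% of all genes), and the median of the 7 was -0.06. Both counts of members rest on the same HEMI arrays, and Cdkn1c was lowest on HEMI replicate 2 and not on HEMI replicate 1. Kcnq1ot1 itself varied by 1.27 between the 2 WT animals.

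On proximal chromosome 7, Peg3 and Usp29 share a paternally expressed promoter region and Zim1 is maternally expressed. Usp29, a deubiquitinase, had -3.19 and -3.35 in VSKO, -2.96 and -3.14 in HEMI and -2.55 and -2.61 in WT. Both WT arrays lay above all mutant arrays, and the differences were -0.69 ± 0.13 for VSKO from WT (adjusted p 0.110) and -0.47 ± 0.13 for HEMI from WT (adjusted p 0.275). The difference of VSKO from WT was the largest of any member in that comparison. Peg3, a zinc finger protein and the main product of the domain, had 0.72 and 0.64 in VSKO, 1.06 and 0.51 in HEMI and 0.49 and 0.69 in WT. Its groups overlapped, with HEMI replicate 1 highest, and its difference of VSKO from WT was 0.09.

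The Snrpn-Ube3a domain, whose human counterpart is lost in Prader-Willi and Angelman syndromes, had 6 tested members. Snrpn, the paternally expressed splicing protein gene at its imprinting centre, had -0.34 and -0.33 in VSKO, -0.26 and -0.05 in HEMI and -0.29 and -0.29 in WT. Ndn, the paternally expressed growth suppressor necdin, had 2.50 and 2.87 in VSKO, 2.85 and 2.63 in HEMI and 2.99 and 2.99 in WT. Snrpn was highest on HEMI replicate 2 and Ndn on both WT arrays. Mkrn3, a paternally expressed makorin RING finger gene, had -1.03 and -1.53 in VSKO, -1.04 and -1.31 in HEMI and -1.84 and -1.45 in WT. Ube3a, the ubiquitin ligase whose imprinting is known from neurons, had -0.54 and -0.64 in VSKO, -0.40 and -0.18 in HEMI and -0.05 and -0.47 in WT. VSKO and WT overlapped for Mkrn3, and for Ube3a the VSKO arrays were the lowest of the 6. Read from their brightest probes, all 6 members had a negative difference of VSKO from HEMI, as did 44.6% of all genes tested. The lowest was -0.30 for Ube3a and the median -0.08, and none passed the test. Dimmer probes of Ube3a (0.62), Peg12 (0.16) and Mkrn3 (0.12) had positive differences, and those of Snrpn negative ones (-0.09 and -0.40). A further Snrpn probe, dim on all arrays, had -4.60 and -4.83 in VSKO, -4.15 and -4.48 in HEMI and -7.27 and -6.04 in WT, where it was not well above background on either array. The probe was kept only through VSKO and HEMI, the groups where it was high. Its signal was at least 1.5-fold higher in VSKO and at least 1.99-fold higher in HEMI than the lowest measurable signal of the WT arrays. These folds set the mean of the bright group against the lowest signal of any probe well above background on the WT arrays. They were not tested. The limma fit used the dim WT values as they were, with differences from WT of 1.94 in VSKO and 2.34 in HEMI. Their adjusted p over all kept probes was 0.141 and 0.151, by limma. Because the filter favoured such a difference, these values were not taken as support for a change. The brighter Snrpn probes had differences of VSKO from WT of -0.04 and 0.03.

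Of the remaining members, Igf2r, a maternally expressed receptor that clears IGF-II, had 2.58 and 2.31 in VSKO, 2.24 and 2.16 in HEMI and 2.27 and 2.40 in WT. Airn, the paternally expressed RNA that silences it, had 0.49 and 0.51 in VSKO, 0.63 and 0.09 in HEMI and 0.39 and 0.12 in WT. HEMI lay below WT for Igf2r and VSKO above WT for Airn, and the differences of VSKO from WT, 0.11 and 0.24, did not pass the test. The Airn probes disagreed, with differences between -0.32 and 0.71. Grb10, a maternally expressed adaptor that dampens insulin signalling, had 0.68 and 0.97 in VSKO, 0.88 and 0.74 in HEMI and 1.19 and 1.22 in WT. Both mutant groups lay below WT without overlap, by -0.38 ± 0.15 in VSKO and -0.40 ± 0.15 in HEMI (adjusted p 0.327 and 0.370). Peg10, a paternally expressed retrotransposon-derived gene of the placenta, had -3.15 and -3.98 in VSKO, -3.51 and -3.39 in HEMI and -3.60 and -2.63 in WT. Impact, a paternally expressed regulator of translation, had 1.28 and 1.57 in VSKO, 1.81 and 1.55 in HEMI and 1.35 and 1.63 in WT. Neither separated the groups. The 14 tested members whose values are not given on each array had differences of VSKO from WT between -0.28, for Plagl1, and 0.26, for Peg12.

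Gnas encodes the stimulatory G protein alpha subunit and, from other promoters, further proteins and RNAs expressed from the maternal or the paternal allele. Its brightest probe, of transcript variant 1, had 6.41 and 6.35 in VSKO, 6.46 and 6.30 in HEMI and 6.49 and 6.60 in WT. A dimmer probe, of transcript variant 4, had -2.61 and -2.87 in VSKO, -3.70 and -3.82 in HEMI and -4.25 and -4.40 in WT. This probe was highest on both VSKO arrays, lowest on both WT arrays and in between in HEMI, with no overlap, whereas the variant 1 probe was slightly higher in WT. When every kept probe was tested on its own, a setting added after values were seen, the variant 4 probe rose in VSKO by 1.59 ± 0.15 (SE, 3.0-fold, adjusted p 0.0330, limma). It was the only one of 68 probes of imprinted genes called in VSKO against WT, where 0.727% of all kept probes were called. The same probe differed by 0.56 ± 0.15 between HEMI and WT (adjusted p 0.262) and by 1.02 ± 0.15 between VSKO and HEMI (adjusted p 0.150), comparisons in which 0.122% and 0.0873% of all kept probes were called. The call was lost when any 1 of the 6 arrays was left out, with adjusted p between 0.0755 and 0.170. The difference of VSKO from WT was 0.71 after another background correction (adjusted p 0.0472). The other 3 Gnas probes had differences of VSKO from WT between -0.44 and -0.17. The probe's position in an exon, an intron or an untranslated region was not determined here.

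**Figure D4:**
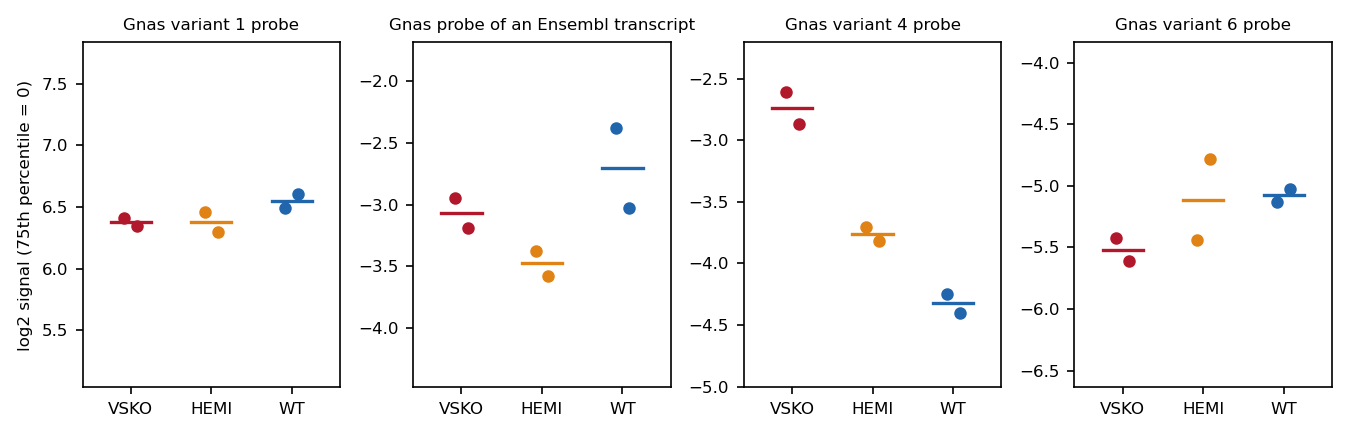
Panels show log2 signal of the 4 Gnas probes (y axis, each panel spanning the same range) in VSKO, HEMI and WT, with points for animals and bars for group means. Only the variant 4 probe is higher in VSKO, where its mean was -2.74, against -3.76 for HEMI and -4.32 for WT.

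The machinery that sets and guards imprints was read from a list of 20 genes, all above background. The list was chosen with earlier results of these data known, so its counts cannot be read as an excess over all genes. In VSKO against WT 1 rose and 1 fell, where 0.977% of all genes were called, and the median difference was -0.17. In HEMI against WT 1 fell and none rose, where 0.118% were called, with a median of -0.07. Dnmt3l, the cofactor that directs new methylation to imprinting control regions in germ cells, had -0.13 and -0.10 in VSKO, -0.65 and -0.43 in HEMI and 1.85 and 1.45 in WT. It fell by 1.76 on the log2 scale in VSKO (adjusted p 0.0311, limma) and by 2.19 in HEMI (adjusted p 0.0428), and the mutant arrays all lay below WT. Nlrp2, a maternal factor of the oocyte, had -2.49 and -2.42 in VSKO, -4.22 and -3.86 in HEMI and -3.77 and -3.81 in WT, and it rose in VSKO by 1.34 (adjusted p 0.0424). These calls were lost when any 1 of the 6 arrays was left out, with adjusted p from 0.0674 to 0.148 for Dnmt3l in VSKO, 0.0902 to 0.214 for Dnmt3l in HEMI and 0.0615 to 0.186 for Nlrp2. Dnmt3l, Nlrp2, Zfp445 (0.54), Dppa3 (-0.37), Arid4b (0.36) and Tet1 (-0.36) had the 6 largest absolute differences of VSKO from WT on the list. The median of 12 germ cell markers differed by -0.36 between VSKO and WT and by -0.27 between HEMI and WT, and its part in the Dnmt3l values was not tested.

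A second list held 30 further imprinted genes, of which 26 had a probe above background, and 0 of 26 passed an adjusted p of 0.05 in any comparison by limma, where 0.977%, 0.118% and 0.142% of all genes were called in VSKO against WT, HEMI against WT and VSKO against HEMI. Without adjustment, p was under 0.05 for 8 of them in VSKO against WT (14.7% of all genes), 4 in HEMI against WT (12.4%) and 2 in VSKO against HEMI (7.69%). The median difference of VSKO from WT was -0.10. Nap1l5, a paternally expressed gene that sits in an intron of another gene, had -3.51 and -3.49 in VSKO, -3.18 and -3.15 in HEMI and -2.84 and -0.81 in WT, so that its difference of -1.67 rested on WT replicate 2 (adjusted p 0.326). Rasgrf1, a paternally expressed exchange factor whose imprint is set in the male germ line, had -3.30 and -3.41 in VSKO, -4.17 and -3.87 in HEMI and -4.31 and -4.76 in WT. Its VSKO arrays were the highest, and its difference of VSKO from WT was 1.18 (adjusted p 0.0847). Slc22a2 (0.91), Tnfrsf23 (0.90), Atp10a (-0.86) and Kcnq1 (-0.65) followed in size, and none passed the test.

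All 12 Sertoli cell markers and all 12 germ cell markers were above background on every array, so the tissue carried the markers of testis. Fetal Leydig cell markers had a median of -0.82 in VSKO against WT and -0.72 in HEMI against WT. Their part in the values of imprinted genes was not tested.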

How the data were processed

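Total RNA of whole testes was amplified with T7, labelled with Cy3 and hybridised to 60-base Agilent arrays, per the labels' protocols. Feature Extraction 10.7.3.1 made the deposited intensity of each spot, background-subtracted and dye-normalized, with flags for spots well above background, per the file headers. The submitters' processing notes name Agilent Feature Extraction 8.5.1.1. A series table of deposited ratio values equalled each array's signal divided by its median and served as an alternative. The log2 values reported here were computed from the deposited intensity: log2 of the processed signal minus the array's 75th percentile over non-control spots. Spots of a probe were averaged without outlier spots, and 34365 of 55681 probes were kept, each well above background in both animals of some genotype. A gene was read from its kept probe with the highest mean. Names were updated through RefSeq: 26762 probes matched by accession, 102 by another accession and 3751 by symbol, while 25066 stayed under their original name. Probe positions come from the array files, build mm9.

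All 6 arrays, with 1 mean per genotype, entered one fit with limma 3.58.1 in R 4.3.3 (lmFit and eBayes), with p-values adjusted by Benjamini-Hochberg over all 24569 genes at a threshold of 0.05, two-sided. The fit had 3 residual and 2.249 prior degrees of freedom, and intervals are 95%. The number of arrays limits the precision. The fit was tested on simulated data in 20 runs with 200 changed genes. Replicates of a group correlated with r from 0.987 to 0.992 over the kept probes' genes.

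Values on each array are given for members past the threshold, the 8 members with the largest absolute difference in each comparison, members whose probes disagreed in sign with a gap over 0.5, and H19, Igf2, Igf2r, Dlk1, Meg3, Cdkn1c, Peg3 and Snrpn. From the lists of imprint methylation factors and of other imprinted genes, each gene past the threshold and up to 6 with the largest absolute difference of VSKO from WT are named. The members and lists were chosen with earlier results of these data known. Alternatives changed the scaling, background correction, dim-probe filter, choice of probe, groups in the fit, prior, replicate block and each array in turn.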

Additional observations from a re-analysis of the deposited data

How the results depend on the processing

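The count of imprinted genes changed was 0 in each comparison under every alternative of the gene-level fit. In 1056 comparisons of the named members with an alternative none passed the threshold, and 66 had a sign other than in the main setting, all for members with absolute log2 differences up to 0.51. With every kept probe as its own row, 1 probe, of Gnas transcript variant 4, was called in VSKO minus WT. Its adjusted p was 0.0935 with no filter on dim probes, 0.0755 with only the 2 groups compared and 0.0672 with the replicate block. With these same settings the adjusted p of Dnmt3l was 0.0780, 0.0674 and 0.0754 in VSKO minus WT and 0.118, 0.0902 and 0.125 in HEMI minus WT, and that of Nlrp2 0.0969, 0.0615 and 0.0799 in VSKO minus WT. Quantile normalization gave 0.0535 for Dnmt3l in HEMI minus WT and 0.0714 for Nlrp2, and normexp gave 0.0507 for Nlrp2. Counts over all genes moved more. In VSKO minus WT, 240 genes became 12 with no filter and 42 with only the 2 groups, and 0 to 69 without a replicate, with 0 (limma) without WT replicate 1 or WT replicate 2 although 2623 and 2819 genes had an unadjusted p under 0.05. In HEMI minus WT, 29 genes became 55 with median centring or the series values, 92 with normexp, 0 with no filter (5281 unadjusted, limma), 68 with probes above background on all 6 arrays, 4 with only the 2 groups, 130 with a trend, and 0 to 8 without a replicate. In VSKO minus HEMI, 35 became 74 with median centring or the series values, 17 with quantile normalization, 19 with normexp, 5 with no filter, 15 with all 6 arrays above background, 0 with only the 2 groups (1741 unadjusted, limma), and 0 to 41 without a replicate.

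With the replicate block, 19, 0 and 0 genes were called in VSKO minus WT, HEMI minus WT and VSKO minus HEMI (3443, 2796 and 1872 unadjusted, limma), and no imprinted gene. Over all genes tested, the deviations of same-numbered samples from their group means had r of -0.037, -0.028 and -0.006. Whether same-numbered samples shared a litter or a day was not tested.

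Some class medians moved by more than the SD between animals. The maternal median in VSKO minus WT was 0.0721 with normexp and -0.0345 to 0.0849 without a replicate. In HEMI minus WT the maternal median was -0.178 without the members of placenta or brain and -0.174 to -0.0363 without a replicate, and the paternal median was 0.0318 with normexp and -0.200 to 0.0374 without a replicate. In VSKO minus HEMI the maternal median was 0.0391 with median centring or the series values, 0.191 without the members of placenta or brain and 0.0414 to 0.145 without a replicate, and the paternal median was -0.150 to 0.0619 without a replicate. The cause of these shifts was not tested. Dim probes, such as those of Dio3, Peg10 and Phlda2, lie near background, where the correction moves the size of a difference.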
